A study of Rattus norvegicus with 8 samples.

Results

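The 9 enzymes described here carry out the conversion of cholesterol to conjugated bile acids in the liver: Cyp7a1, Cyp27a1, Cyp7b1, Cyp8b1, Hsd3b7, Akr1d1, Amacr, Slc27a5 and Baat. They were found by gene symbol, older synonyms included, among 23615 probes with 14332 distinct symbols. Hsd3b7, the dehydrogenase of the sterol ring, had no probe and Cyp7b1 had 2, which gave 9 probes for 8 enzymes.

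Each Agilent array compared 1 rat liver, labelled with Cy5, with a pool of control liver RNA, labelled with Cy3. The LPS group was 4 Sprague Dawley rats given 3 mg/kg lipopolysaccharide, the endotoxin of Gram-negative bacteria, into the peritoneum. The control group was 4 Sprague Dawley rats, called non-treated in the sample titles, while the growth protocol has them given 0.9% sodium chloride as vehicle. Livers were taken at 24 h and the age is given as not known. The headers of the deposited table state other terms: day 2 throughout, a dose named High (1000 mkd) on LPS arrays 2 to 4, one named Mid (100 mkd) on LPS array 1, and 0 mkd on control arrays. Since the headers do not carry the replicate numbers of the labels, the arrays are numbered here in table order.

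Bile acids are made in hepatocytes by 2 routes. The classic route starts with Cyp7a1, which hydroxylates the sterol ring and limits the rate of synthesis. The alternative route starts with Cyp27a1, a mitochondrial hydroxylase of the side chain, and continues with Cyp7b1, which hydroxylates the ring of the oxysterols so formed. Cyp8b1 adds the hydroxyl group that makes cholic acid, Akr1d1 reduces the sterol ring, Amacr inverts the side chain for its shortening in peroxisomes, Slc27a5 activates bile acids with coenzyme A, and Baat joins them to taurine or glycine. In rodents, synthesis is held back by bile acids through the receptor FXR (Nr1h4) and its target Nr0b2, and inflammatory stimuli are known to lower several of these enzymes.

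The measure is log2(liver/pool) on each array, in which 0 means that the liver and the control pool were equally bright. Intensities are given in arbitrary units with 2 decimals, and an intensity of one probe cannot be set against that of another. There were 23408 to 23529 probes with values per array, and the number of arrays, 4 a group, limits the precision. The tissue label was checked against 10 hepatocyte markers. Of these, 9 had a probe and 6 had enough values to test, and the liver intensities of the 6 summed to 59.2 to 72.3 units on LPS arrays and 42.5 to 63.8 on control arrays. Serpina1 was the faintest, at means of 0.0675 units in LPS livers and 0.02 in controls. The direction of the sum rests on Hpx, at means of 35.6 units in LPS livers and 17.1 in controls. Alb went the other way, at 8.72 and 17.6 units, and was called lower. Apob, Cps1 and Asgr1 were also dimmer in LPS livers, but none of them was called. Their log2 ratios differed by 0.12, -0.39 and -0.08, so Apob was higher by that measure. The sum is therefore no measure of how many hepatocytes there were. The pool channel, which carries the same RNA on every array, was not equal between the groups. Its deviations from the mean of all arrays correlated at 0.509 to 0.713 among LPS arrays 2 to 4, at 0.556 to 0.658 among control arrays 2 to 4, and at -0.791 to -0.613 between these sets, while LPS array 1 and control array 1 stood apart from both and correlated at -0.339 with each other. The sets follow the groups, so a shift of the pool and a shift of the group cannot be told apart. The differences between the array 1s, which set 1 array against 1, and between arrays 2 to 4 are given beside the results below.

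Of the 7 enzymes that could be tested, Cyp27a1 fell and Cyp7b1 rose in LPS livers, and Cyp7a1, Cyp8b1, Akr1d1, Amacr and Baat were not called at an adjusted p of 0.05. That is 2 called of 7, while 24.7% of all 21052 features tested were called (12.2% higher and 12.4% lower). The median difference of the 7 was -0.34 on the log2 scale, against -0.04 over all features. That median is the value of Akr1d1, which was read near the last decimal, so it says little about the set. The 2 called enzymes were also those whose LPS and control values did not overlap, which held for 27.8% of all features. Slc27a5 had values in LPS livers and none in controls, so it entered no test. The comparison used limma over all features with Benjamini-Hochberg adjustment, and adjusted p-values below are from that fit unless another is named.

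**Figure D1:**
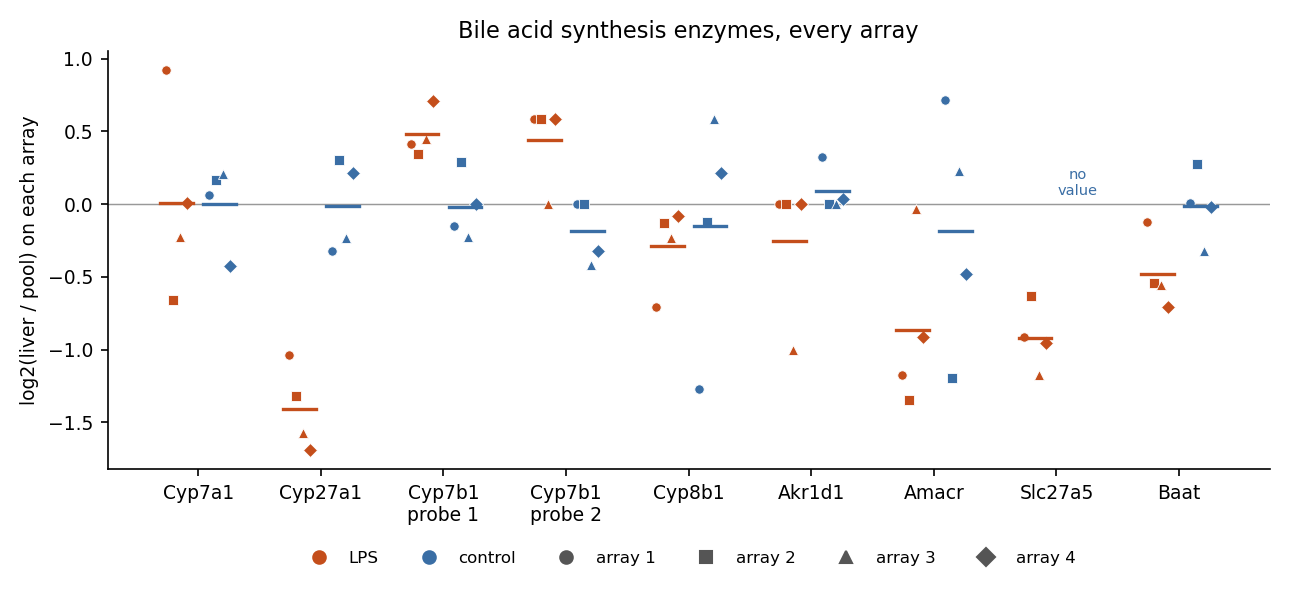
Log2 ratio of liver over pool for 8 bile acid synthesis enzymes (9 probes), with LPS arrays in orange left of control arrays in blue. Marker shapes give the array number and bars give group means. Cyp27a1 and probe 1 of Cyp7b1 separate the groups, Slc27a5 has no control value, and LPS array 1 lies above the other LPS arrays for Cyp7a1.

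Promoter sequences were at hand for 6 of the enzymes, and those of Cyp27a1, Baat and Cyp8b1 are shown because they held a match to a motif of the liver factors searched. Those of Slc27a5, Hsd3b7 and Amacr held no match. Each is the 250 bases before the gene start in RefSeq's GRCr8 assembly, 5′ to 3′ on the strand of the gene, with capitals for a motif match. They lie at chr9:83713282-83713531 (plus strand) for Cyp27a1, chr5:68656138-68656387 (minus strand) for Baat and chr8:130457593-130457842 (minus strand) for Cyp8b1.
Cyp27a1: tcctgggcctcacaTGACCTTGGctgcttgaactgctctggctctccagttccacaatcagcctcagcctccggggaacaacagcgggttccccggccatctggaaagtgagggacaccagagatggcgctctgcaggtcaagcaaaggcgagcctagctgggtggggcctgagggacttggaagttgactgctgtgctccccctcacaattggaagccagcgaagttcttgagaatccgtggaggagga
Baat: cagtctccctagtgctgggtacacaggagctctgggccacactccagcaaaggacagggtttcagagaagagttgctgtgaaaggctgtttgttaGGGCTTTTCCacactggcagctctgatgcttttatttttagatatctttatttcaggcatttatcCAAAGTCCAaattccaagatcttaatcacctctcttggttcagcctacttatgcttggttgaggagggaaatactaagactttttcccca
Cyp8b1: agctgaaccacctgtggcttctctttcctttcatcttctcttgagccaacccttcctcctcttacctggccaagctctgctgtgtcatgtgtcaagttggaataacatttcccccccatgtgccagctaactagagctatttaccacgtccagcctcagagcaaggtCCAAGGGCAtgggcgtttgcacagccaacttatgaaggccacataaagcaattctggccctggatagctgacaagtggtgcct
The letters searched, on both strands, were NCAAGGNCA for NR5A2, CAAAGTCCA for HNF4A, TTGCGCAA for C/EBP, TATAAA for a TATA box, and GGG followed by any 2 bases and TTTCC for NF-kB. No pair of matches overlapped in these sequences. Cyp8b1 held an NR5A2 match 83 to 75 bases before its start. Cyp27a1 held one on the reverse strand 236 to 228 bases before its start, a start that lies inside the annotated span of the gene. In Baat the HNF4A letters stood 90 to 82 bases before the start and the NF-kB letters 155 to 146 bases before it. Among 33469 rat promoters of the same length, 5.57% held the NR5A2 letters, 0.338% the HNF4A letters, 0.14% the C/EBP letters, 1.3% the NF-kB letters and 12.9% the TATA letters. These are matches of letters and not measured binding.

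Cyp27a1, the entry to the alternative route, fell in LPS livers. Its liver intensity was 9.73, 7.87, 5.84 and 5.91 units on LPS arrays 1 to 4, against 16.36, 25.67, 17.44 and 24.23 units on control arrays 1 to 4. The highest LPS liver was below the lowest control liver. The ratio to the pool was 0.487, 0.400, 0.336 and 0.310 on the LPS arrays and 0.80, 1.23, 0.851 and 1.16 on the control arrays. On the log2 scale the group means were -1.41 ± 0.29 in LPS livers and -0.01 ± 0.31 in controls (SD, n = 4 each). The difference was -1.40 ± 0.19 (SE, 95% interval -1.85 to -0.95, adjusted p = 0.00217), which is 38.0% of the control level or 2.63-fold lower. A change of at least 2-fold with a call was found for 3.75% of all features. The pool intensity of Cyp27a1 was 20, 19.68, 17.36 and 19.09 units on LPS arrays and 20.45, 20.83, 20.50 and 20.90 on control arrays, a log2 difference of -0.12 that is small beside that of the livers. Between the array 1s alone the ratio differed by -0.72, and between arrays 2 to 4 of each group by -1.62. In whole liver, fewer hepatocytes and less Cyp27a1 RNA per hepatocyte cannot be told apart.

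Cyp27a1 was called in 23 of 24 alternatives, with differences of -1.62 to -1.02. The exception was limma's test against a change of 1.5-fold (treat), in which its adjusted p was 0.0767. With any single array left out, the difference was -1.52 to -1.29 and the adjusted p 0.00328 to 0.0101.

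Cyp7b1, the next step of the alternative route, rose in LPS livers, in the opposite direction to Cyp27a1. Its difference over the average of 2 probes was 0.56 ± 0.12 (SE, 95% interval 0.28 to 0.85, adjusted p = 0.0140), or 1.48-fold higher. The signal was faint. The probe for the Ensembl transcript read 0.16, 0.14, 0.15 and 0.18 units on LPS arrays, against 0.09, 0.11, 0.06 and 0.09 units on control arrays. Its LPS values were all above its control values, in the liver channel and as ratios. The second probe, for an expressed sequence tag, read 0.06, 0.06, 0.03 and 0.06 units on LPS arrays and 0.04, 0.04, 0.03 and 0.04 units on control arrays, so that its groups overlapped. Tested on their own, the probes differed by 0.50 ± 0.13 (adjusted p = 0.0268) and 0.62 ± 0.17 (adjusted p = 0.0308), so both were called, as were 24.9% of all probes.

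These intensities are a few steps of the second decimal. Rounding by up to 0.005 units would allow a difference of 0.22 to 0.78 at the Ensembl probe and of -0.09 to 1.35 at the other. The pool read the Ensembl probe at 0.12, 0.11, 0.11 and 0.11 units on LPS arrays and at 0.10, 0.09, 0.07 and 0.09 units on control arrays. Between the array 1s the averaged ratio differed by 0.58 and between arrays 2 to 4 by 0.56. The call was lost in 4 alternatives. With quantile-normalized ratios the adjusted p was 0.0617, without both array 1s it was 0.0839, and against a 1.5-fold change it was 1. In the liver channel alone the difference was 0.29 and the adjusted p 0.402.

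**Figure D2:**
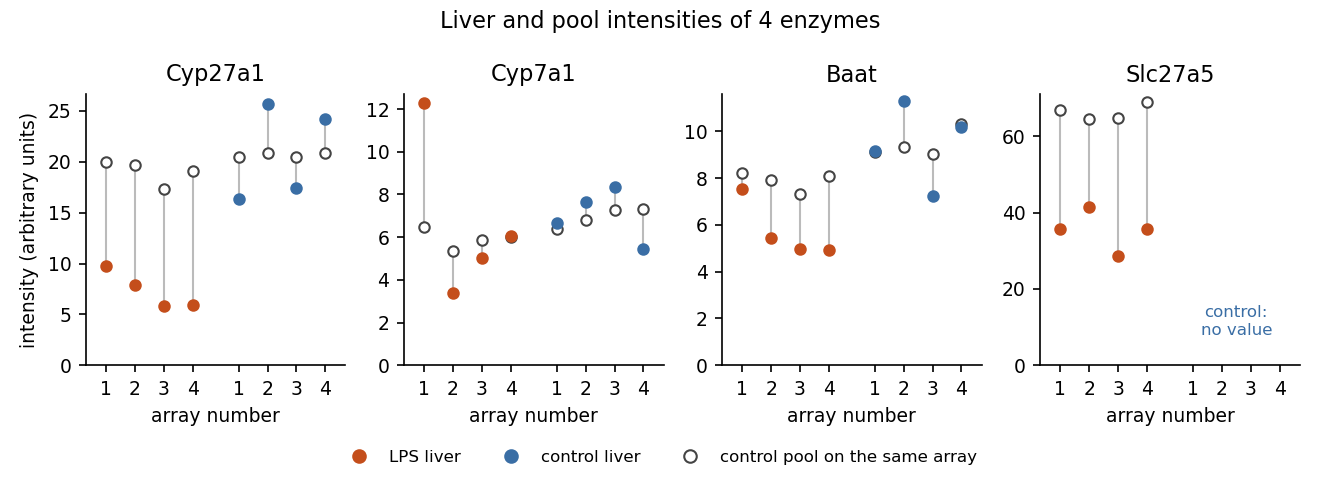
Intensity in arbitrary units, on axes starting at 0, of the liver (filled) and of the control pool on the same array (open) for Cyp27a1, Cyp7a1, Baat and Slc27a5, by array number with LPS arrays left of control arrays. Cyp27a1 lies below its pool on all LPS arrays and on either side of it on control arrays, while Cyp7a1 is above its pool on LPS array 1 and below it on LPS array 2.

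Cyp7a1, the first and rate-limiting enzyme of the classic route, differed by 0.01 ± 0.33 (SE, 95% interval -0.76 to 0.77, adjusted p = 1). Its liver intensity was 12.26, 3.38, 5.02 and 6.04 units on LPS arrays, against 6.68, 7.64, 8.37 and 5.46 units on control arrays. LPS array 1 held the highest of the 8 values and LPS arrays 2 and 3 the lowest. The ratio to the pool was 1.90, 0.633, 0.854 and 1.00 on LPS arrays and 1.05, 1.12, 1.15 and 0.746 on control arrays. LPS livers spread with an SD of 0.67 and controls with 0.29 on the log2 scale. Only 1.81% of the 993 features of at least 5 units had a greater SD among LPS arrays, while 21.7% had a greater SD among controls.

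The sign of the Cyp7a1 difference followed LPS array 1, whose header names the lower dose. Between the array 1s the log2 ratio differed by 0.86, and between arrays 2 to 4 by -0.28. Without LPS array 1 the difference was -0.30 (adjusted p = 0.367), and without control array 4 it was -0.14 (adjusted p = 0.806). The interval of the fit includes a change of 1.5-fold either way, so a change of that size in Cyp7a1 was not detectable with these arrays.

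Cyp8b1, which directs synthesis to cholic acid, was bright and scattered. Its liver intensity was 22.97, 30.83, 22.37 and 33.19 units on LPS arrays, against 15.59, 35.82, 53.15 and 45.7 units on control arrays. The control values spanned both sides of the LPS values. The difference was -0.14 ± 0.38 (SE, 95% interval -1.03 to 0.75, adjusted p = 0.819). The control SD was 0.80 on the log2 scale, exceeded by 1.81% of the features of at least 5 units, and the LPS SD was 0.29. On control arrays 3 and 4 the liver spot stood at 99.7% and 97.7% of the highest value of the array, where a reading may be a lower limit. The direction was not settled. Without LPS array 1 the difference was 0.0009 and without control array 3 it was 0.11, and between the array 1s it was 0.56 but between arrays 2 to 4 it was -0.37.

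Akr1d1, the reductase of the sterol ring, was read near the last decimal. Its liver intensity was 0.03, 0.02, 0.01 and 0.02 units on LPS arrays and 0.05, 0.02, 0.03 and 0.00918 units on control arrays. The difference was -0.34 ± 0.24 (SE, adjusted p = 0.333), and rounding alone would allow anything from -2.0 to 1.23. A change of Akr1d1 in either direction was therefore not detectable with this probe.

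Amacr, the racemase of the side chain, read 4.95, 3.60, 8.59 and 5.12 units on LPS arrays, against 20.49, 5.04, 12.42 and 9.40 units on control arrays. LPS array 3 was above control array 2, so the groups overlapped. The difference was -0.68 ± 0.46 (SE, 95% interval -1.75 to 0.38, adjusted p = 0.313). The control SD of 0.84 on the log2 scale was exceeded by 1.41% of the features of at least 5 units. Most of the difference lay between the array 1s, at -1.89, while arrays 2 to 4 differed by -0.28.

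Slc27a5, the bile acid coenzyme A ligase, was measured on LPS arrays only. The liver read 35.57, 41.49, 28.7 and 35.67 units, and the control pool on the same arrays read 66.9, 64.4, 64.67 and 69.05 units. Every LPS liver was thus dimmer than the pool of control livers, with ratios of 0.532, 0.644, 0.444 and 0.517. On the log2 scale the mean was -0.92 ± 0.22 (SD, n = 4). The pool stood at 93.4% to 99.6% of the highest value on these arrays, where a reading may be a lower limit. With no control liver measured, the spread of controls is unknown and no test was made.

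Baat, which conjugates bile acids, read 7.53, 5.44, 4.98 and 4.94 units on LPS arrays, against 9.15, 11.28, 7.25 and 10.17 units on control arrays. LPS array 1 was above control array 3, and the other LPS livers were below every control. The difference was -0.47 ± 0.16 (SE, 95% interval -0.84 to -0.10), with an adjusted p of 0.0704. The call depended on the setting, as Baat was called in 6 of 24 alternatives, of which those without LPS array 1 and without the array headed Mid are the same fit. Without LPS array 1 the difference was -0.59 (adjusted p = 0.0291), and without control array 3 it was -0.57 (adjusted p = 0.0410). In the liver channel alone it was -0.69 (adjusted p = 0.0336), and with probes under 0.1 units left out it was -0.47 (adjusted p = 0.0387). Between the array 1s the difference was -0.13, and between arrays 2 to 4 it was -0.58.

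**Figure D3:**
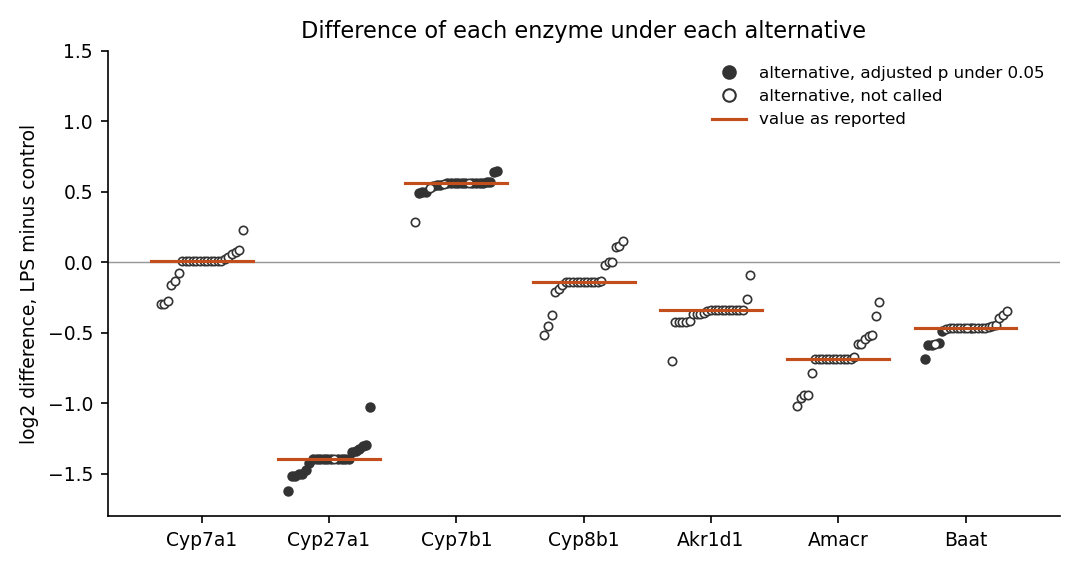
Log2 difference, LPS minus control, of each enzyme tested under up to 24 alternative settings, with filled points where the adjusted p was under 0.05 and an orange line at the value as reported. Cyp27a1 stays between -1.62 and -1.02, Cyp7b1 stays above 0, and Cyp7a1 and Cyp8b1 lie on both sides of 0.

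Whether the enzymes differed from each other in their response was tested on the difference of their log2 ratios within an array. For the 21 pairs, an exact two-sided permutation test over the 70 splits of 8 arrays gave the smallest p it can reach, 0.0286, for 5 pairs. After adjustment over the pairs the smallest value was 0.12, so 0 pairs passed 0.05 and 5 did so unadjusted. Since 13 pairs would have to reach the smallest p for any to pass after adjustment, this count is largely set by the number of arrays. In the liver channel alone 0 passed when adjusted and 3 when unadjusted. The 5 pairs were Cyp7b1 over Cyp27a1, by 1.96 on the log2 scale, Cyp7a1 over Cyp27a1, by 1.40, Cyp7b1 over Baat, by 1.03, Cyp27a1 against Baat, by -0.93, and Cyp7b1 over Akr1d1, by 0.90. Each of them includes Cyp27a1 or Cyp7b1, and the pair of Cyp7a1 and Cyp27a1 sets the start of the classic route against that of the alternative one. In the pair of Cyp7b1 and Akr1d1 both enzymes were read near the last decimal, and rounding could turn its sign.

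The pool channel itself differed between LPS and control arrays, by -0.30 for Amacr, -0.26 for Baat, -0.23 for Cyp7a1, -0.20 for Cyp8b1, 0.04 for Akr1d1 and 0.21 for Cyp7b1 on the log2 scale, against a median of 0.15 over all features. The pool was thus dimmer on LPS arrays for 4 of these 6 enzymes and brighter for Cyp7b1. The part of this shift in the results was not tested.

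The features whose ratios lay closest to those of Cyp27a1 over the 8 arrays were Flcn (root mean square difference 0.166 on the log2 scale), Plekhf1 (0.210), Alb (0.225), Gcdh (0.233) and Fgfrl1 (0.245). Flcn encodes folliculin, Alb serum albumin and Gcdh the mitochondrial glutaryl-CoA dehydrogenase. Alb differed by -1.40 ± 0.12 (SE, adjusted p = 0.000342), a difference largely set by its choice for closeness to Cyp27a1. The closest to Cyp7a1 were Galntl2 and Or7h7b (0.245 each), Ecel1 and Scn8a (0.259 each) and Or6c211 (0.260). None of these 5 was called, which largely follows from choosing them for closeness to Cyp7a1. Their group means of liver intensity were 0.0118 to 0.035 units, so that likeness to Cyp7a1 was found among values near the last decimal.

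Of 15 other enzymes of bile acid synthesis, 13 had a probe and 12 were tested, and 6 fell while 2 rose, where 12.4% of all features fell and 12.2% rose. Those that fell were Ehhadh, Por, Slc27a2, Abcd3, Hsd17b4 and Fdxr, which include the peroxisomal proteins Ehhadh, Abcd3 and Hsd17b4. Ehhadh fell by 2.78 ± 0.31 (SE, adjusted p = 0.000843), and Slc27a2, a second bile acid coenzyme A ligase, fell by 1.06 ± 0.12 (adjusted p = 0.000876). Ehhadh stood at 90% or more of the highest value on 1 control array and Slc27a2 on 3, where readings may be lower limits. Por, the reductase that feeds electrons to the microsomal hydroxylases Cyp7a1, Cyp7b1 and Cyp8b1, fell by 1.37 ± 0.35 (adjusted p = 0.0270). Fdx1, the ferredoxin that feeds the mitochondrial Cyp27a1, rose by 0.50 ± 0.11 (adjusted p = 0.0148), and the oxysterol-forming Ch25h rose by 0.79 ± 0.12 (adjusted p = 0.00322). The median of the 12 was -0.39.

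Of 16 regulators of the pathway, 14 were tested, and 3 fell and 1 rose, with a median of -0.16. That is 4 of 14 called, close to the 24.7% of all features. Nr0b2, the corepressor known to restrain Cyp7a1 and Cyp8b1, fell by 3.16 ± 0.63 (SE, adjusted p = 0.00954), with ratios on LPS arrays that differed by an SD of 1.37 on the log2 scale, against 0.31 on control arrays. Nr5a2, the nuclear receptor that drives Cyp7a1 and Cyp8b1, rose by 0.58 ± 0.12 (adjusted p = 0.0113) at means of 0.095 and 0.0625 units in LPS and control livers, again a few steps of the decimals, and was not called in the liver channel alone (adjusted p = 0.384). Nr1i2, the pregnane X receptor, fell by 0.87 ± 0.11 (adjusted p = 0.00155) and Nr1h2 by 0.25 ± 0.07 (adjusted p = 0.0297). Nr1h4, the bile acid receptor FXR, differed by 0.34 ± 0.37 and was not called (adjusted p = 0.529).

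Of 14 transporters, 13 were tested, and 6 fell and 1 rose, with a median of -0.64, where 12.4% of all features fell and 12.2% rose. With quantile-normalized ratios 1 of the 13, Slc10a1, was called. Slc10a1, the uptake carrier of conjugated bile acids, fell by 1.74 ± 0.18 (SE, adjusted p = 0.000624). Its liver intensity averaged 3.825 units in LPS livers and 15.6 in controls. Slco1a4, another uptake carrier, fell by 1.05 ± 0.23 (adjusted p = 0.0154). The canalicular exporters Abcc2 and Abcb11 fell by 0.96 ± 0.17 (adjusted p = 0.00568) and 0.71 ± 0.11 (adjusted p = 0.00377), and the carriers Slco1a1 and Slco1b2 also fell. Atp8b1, a canalicular lipid flippase, rose by 0.38 ± 0.09 (adjusted p = 0.0225).

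Of 12 genes of cholesterol supply, all were tested, and 3 rose and 1 fell, with a median of 0.02, which is 4 of 12 called beside 24.7% of all features. Tspo, an outer mitochondrial membrane protein that binds cholesterol, rose by 1.87 ± 0.19 (SE, adjusted p = 0.000603). Soat2, which esterifies cholesterol, fell by 0.63 ± 0.17 (adjusted p = 0.0335).

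Some of these calls rested on particular arrays. Por lost its call when any one of 6 arrays was left out, which are all but LPS array 1 and control array 3 (adjusted p = 0.0616 to 0.0758). Nr1h2 lost its call likewise for 6 arrays, all but LPS array 4 and control array 4 (adjusted p = 0.0541 to 0.0726). Atp8b1 lost its call without LPS array 1, 3 or 4 or control array 3 (adjusted p = 0.0518 to 0.0629). Soat2 kept its call only without control array 4 (adjusted p = 0.0556 to 0.0889 without each of the others). Beside treat, quantile-normalized ratios ended the calls of Ch25h, Fdx1, Por, Nr0b2, Nr1h2, Atp8b1, Slco1a4, Abcc2, Abcb11 and Soat2. For Nr0b2 the adjusted p-values under these settings were 0.0787 to 0.0889. In the liver channel alone Ch25h, Fdx1 and Atp8b1 were not called either, nor were Fdx1, Slco1a4, Por, Atp8b1, Nr1h2 and Soat2 without both array 1s. With the labels' replicate number as a block, Slco1a4, Por, Nr1h2 and Soat2 lost their calls. Ehhadh, Slc10a1 and Tspo were called in every alternative run.

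**Figure D4:**
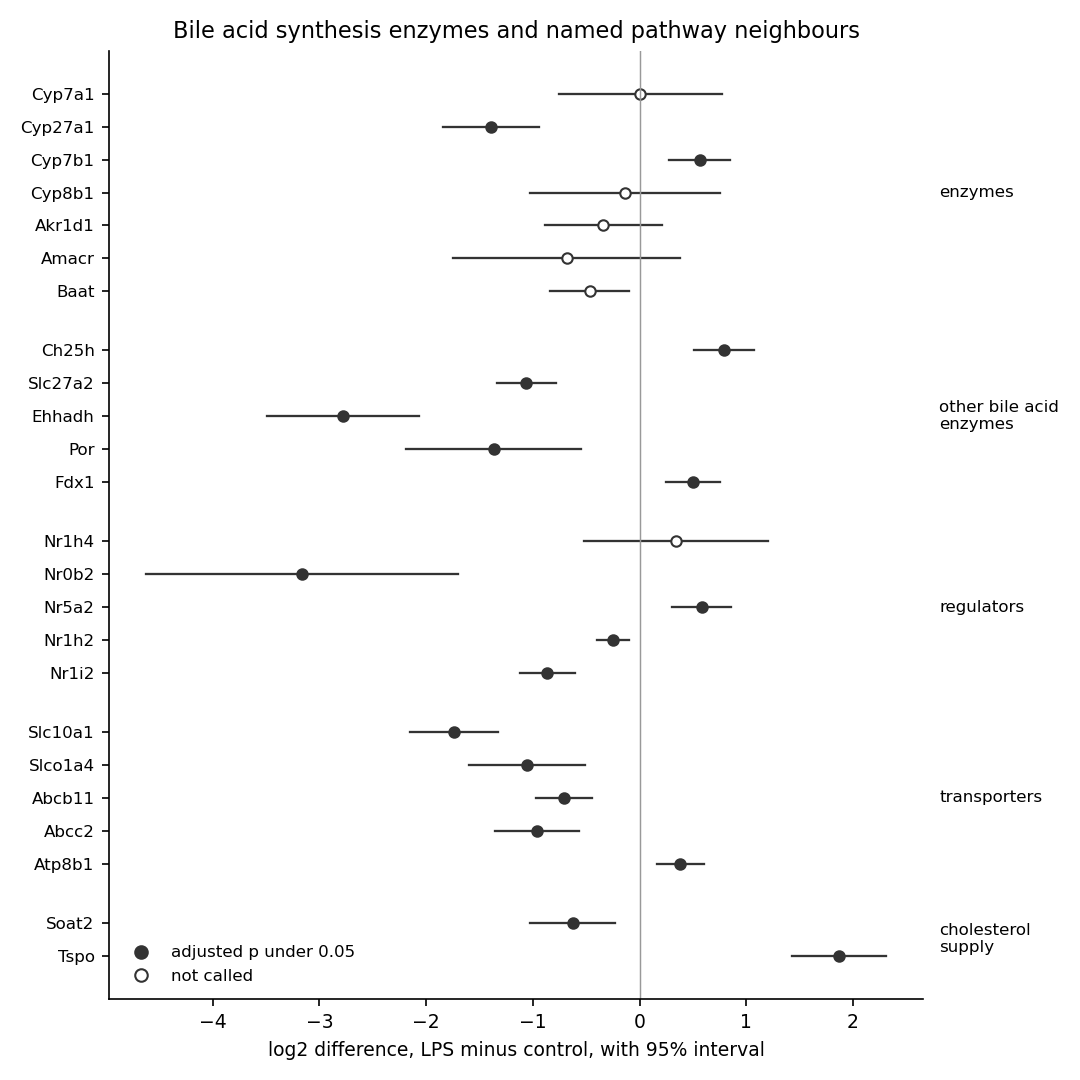
Log2 difference, LPS minus control, with its 95% interval, for the 7 enzymes tested and for genes named from 4 pathway lists, filled where the adjusted p was under 0.05. Cyp27a1 lies left of 0 with Ehhadh, Nr0b2 and Slc10a1, and Cyp7b1 lies right of 0 with Ch25h, Nr5a2 and Tspo.

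Summed marker intensities of most other cell types differed between the groups, though the markers within a type did not all move alike. The sums add intensities of different probes, so the brightest markers weigh most. They were not scaled between arrays, whose median liver intensity was 0.14 to 0.17 units on LPS arrays and 0.12 to 0.16 on control arrays. Small sums of faint markers may therefore partly follow the brightness of the array, which was not tested. The 7 neutrophil markers summed to 12.9 to 17.5 units in LPS livers and 1.98 to 2.38 in controls, with 4 of 7 called higher and Mpo under 0.05 units. Most of the sum was S100a9, at means of 9.35 units in LPS livers and 0.235 in controls, and Fcgr3a, at 4.05 and 1.805. S100a8 and Csf3r were also called. Cxcr2, Itgam and Mpo differed by -0.23, 0.03 and 0 on the log2 scale and were not called. In liver units each was brighter in LPS livers, with Cxcr2 at means of 0.1125 against 0.065 and Itgam at 0.08 against 0.0525. The 7 Kupffer cell and macrophage markers summed to 13.9 to 17.3 units in LPS livers and 18 to 24.6 in controls, with Clec4f and Vsig4 called lower and Adgre1 higher. Without Clec4f the other 6 summed to 12.3 to 14.3 units in LPS livers and 10.2 to 12.1 in controls, so the direction of the sum rests on Clec4f. Markers of sinusoidal endothelium summed to 25.6 to 34.3 units in LPS livers and 38.7 to 45.2 in controls (2 of 4 lower, 1 higher). The fall of this sum rests on Kdr, at means of 18.1 units in LPS livers and 30.2 in controls. Lyve1 read 10.2 and 9.79 units, Stab2 was called lower and Pecam1 higher. Those of stellate cells summed to 6.56 to 8.54 units in LPS livers and 9.83 to 12.3 in controls (2 of 5 lower, 1 higher). Most of that fall lay in Col3a1, at means of 3.13 units in LPS livers and 6.30 in controls, while Des was called higher. Markers of T and NK cells summed to 1.78 to 2.65 units in LPS livers and 1.26 to 1.41 in controls (3 of 7 higher). Cholangiocyte markers summed to 1.22 to 1.96 units in LPS livers and 0.85 to 1.18 in controls (1 of 5 higher). Among them Spp1 averaged 0.725 units in LPS livers and 0.2625 in controls but was not called, and Epcam was dimmer in LPS livers. Krt19 averaged 0.12 and 0.0875 units, while its log2 ratio differed by only 0.02. B cell markers overlapped between the groups with none of 3 called. Of 6 hepatocyte markers tested, Hpx and Serpina1 rose and Alb fell. The part of these changes in the fall of Cyp27a1 and the rise of Cyp7b1 was not tested.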

How the data were processed

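RNA of 8 rat livers (4 LPS, 4 control) was measured on 2-channel Agilent arrays against a control liver pool. Per the labels' protocols, the RNA (100 ng a sample) was amplified in 2 rounds. The intensity values deposited by the authors are linear, in arbitrary units, with 2 decimals. They come from Agilent Feature Extraction 8.5.1.1 per the submitters' processing notes. How background and dye bias were treated is not given in the sources used here. A second table deposited by the authors holds log10 ratios of liver over pool, equal to those of the intensities within rounding, and served as an alternative. The authors' 8 columns of other values, p-values for single arrays, were not used.

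Probes were named through RefSeq's GRCr8 gene table, by accession for 4176, by current symbol for 9464 and by older symbol for 2629, while 469 kept a symbol not in the table and 6877 stayed without one. Probes sharing a symbol were averaged, without 188 probes that had under 3 values in a group. LPS and control arrays were compared on log2(liver/pool) by lmFit and eBayes of limma 3.58.1 (R 4.3.3), with Benjamini-Hochberg adjustment over 21052 features at 0.05. The fit was tested on simulated data. The labels name the replicates as biological.

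The members, gene lists and tests were chosen with earlier results of these data known. Genes named are all members, from each list the 3 called features that rose most and the 3 that fell most, Nr0b2, Nr1h4, Slc10a1 and Abcb11, and the 5 features nearest to Cyp27a1 and to Cyp7a1, apart from a few genes left out here. Alternatives were robust or trended variances, other scalings, array weights, single probes, filters, treat, the deposited log ratios with and without a replicate block, and left-out arrays. Leaving out both array 1s, a term for the array 1s, and leaving out probes at 90% or more of an array's maximum were chosen after seeing the data.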

Additional observations from a re-analysis of the deposited data

Results flagged for a closer look

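Of the groups of 4 arrays, 3 held a value far from the other 3 by Dixon's test, out of 17 examined. Chance alone flags about 1 in 20 where values are not tied by rounding. For the second Cyp7b1 probe and for Akr1d1 on LPS arrays the other 3 log2 ratios were equal, so any difference would have been flagged. The count therefore cannot be read against that rate. The second Cyp7b1 probe had a log2 ratio of 0.0 on LPS array 3, where liver and pool both read 0.03 units, while the other LPS arrays were at 0.58. Akr1d1 had a log2 ratio of -1.0 on LPS array 3, with 0.01 units in the liver against 0.02 in the pool, and 0 on the other LPS arrays. Akr1d1 also had its highest control value, 0.3219, on control array 1, with 0.05 units in the liver against 0.04 in the pool. All 3 values differ from their neighbours by 1 or a few steps of the last deposited decimal.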

How the results depend on the processing

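The call of Cyp27a1 and the direction of Cyp7b1, Cyp27a1, Baat, Amacr and Akr1d1 were kept in the alternatives run, except for the call of Cyp27a1 against a 1.5-fold change. Against 2 enzymes and 5190 features called as reported, quantile-normalized ratios gave 1 and 1528, leaving out both array 1s gave 1 and 3382, and limma's treat against 1.5-fold gave 0 and 391. Under treat only Cyp27a1 had an unadjusted p under 0.05, which makes 1 enzyme, while 3 did in the fit as reported. With single arrays left out, 2 to 3 enzymes and 3989 to 4841 features were called, and Baat was the third. Cyp8b1 turned to 0.12 with quantile-normalized ratios and to 0.15 with array weights, and was 0.0009 without LPS array 1, which is the array headed Mid. Leaving out single arrays gave -0.51 to 0.11 for Cyp8b1 and -0.30 to 0.23 for Cyp7a1. Cyp7a1 turned to -0.16 in the liver channel alone, -0.0743 with array weights, -0.30 without the array headed Mid and -0.28 without both array 1s. The cause was not tested. In the pathway lists, quantile-normalized ratios called 3 of the other enzymes, 1 regulator and 1 transporter lower, and 1 regulator and 1 gene of cholesterol supply higher. With the labels' replicate number as a block, on the deposited log ratios, 2 enzymes and 3786 features were called. Whether the numbers pair the animals was not settled. Deviations of same-numbered arrays correlated at -0.01 to 0.15 and 2 of 4 correlated best with their own number, which is too few to decide it. Intensities near the last decimal limit Cyp7b1 and Akr1d1, and intensities near the maximum limit Cyp8b1 and Slc27a5.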
